A study of Homo sapiens with 4 samples.

Results

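The comparison was between 2 tumours grown from MDA-MB-231 cells with working caspase-3 (caspase-3 efficient), 1 treated with docetaxel and 1 untreated. It was made on 662 mouse loci, of 23698 in the table, that lie in the first megabases of 11 chromosomes (the segments) and were matched by name and position. Of the 662, 303 could be compared: their status was OK in both libraries and they reached 5 FPKM (fragments scaled to transcript length and library size) in at least 1. A further 204 were listed at 0 in both libraries, 154 were above 0 but under 5 FPKM in both, and 1 did not have the status OK.

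MDA-MB-231 is a human breast cancer cell line, and the tumours grew under the skin of Balb/c nude mice, a strain without a thymus that keeps its myeloid, stromal, endothelial and red blood cells. The efficient tumours came from cells with no inhibitor named in the labels, and the treated mouse received docetaxel at 15 mg/kg when tumours measured 12 mm². A second pair of tumours, untreated and docetaxel-treated in the same way, came from caspase-3 inhibited cells and is used here for reference. Each of the 4 groups was 1 library with no replicate, so no difference between conditions has a replicate check and no p-value is given. No age of the mice was found in the labels. The deposited tables measure mouse genes in tumours of human cells, so they report host tissue together with any human reads that aligned to the mouse genome.

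Docetaxel binds microtubules and keeps them from being disassembled, which stops dividing cells in mitosis. Caspase-3 is the protease that carries out much of the cell's dismantling in apoptosis, and Z-DEVD-FMK, with which cells of the inhibited tumours were cultured, is a peptide inhibitor of it. A xenograft under the skin also holds host fibroblasts, vessels, macrophages and adjoining fat, and circulating blood is collected with it.

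Depth differed between the libraries. Relative to the untreated efficient tumour it was 1.22 times in the docetaxel efficient tumour, 0.891 times in the untreated inhibited tumour and 0.672 times in the docetaxel inhibited tumour, as read from how wide the deposited bounds were at a given FPKM. The 4 libraries had 407, 441, 402 and 392 of the 662 loci above 0. Of 11 carcinoma and epithelial markers 7, among them Epcam, Krt8, Krt18 and Krt19, were listed at 0 in every library. These 7 lie outside the segments, where genes used by every cell were often listed at 0, so a 0 there gives no level. The summed level of the 11 markers was 4.66 and 12.1 FPKM in the untreated and docetaxel efficient tumours. Part of the 12.1 came from Cldn4, which also lies outside the segments. It was 2.71 and 2.37 in the inhibited ones. Egfr, the epidermal growth factor receptor, which stromal cells also express, was at 2.42 (0 to 5.30) and 5.99 (3.12 to 8.85) in the efficient tumours with overlapping bounds, and Esrp1, an epithelial splicing regulator, at 1.63 and 0.411. A mouse table gives no check of the human tumour cells themselves.

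The docetaxel-treated efficient tumour had higher levels of the adipose hormone gene Retn, the metabolic enzymes Pcx and Decr1, the receptor Ghr, alpha globin, the myeloid lectin Cd209f and the matrix metalloprotease Mmp13, and no locus passed the same rule downward. A locus was called when it differed at least 2-fold on the log2(FPKM + 1) scale with deposited bounds, taken as 95% intervals, that did not overlap. By this rule 34 of the 303 loci (11.2%) were higher and 0 (0%) were lower. Among all loci of the series, 54 of 667 compared (8.10%) were higher and 6 (0.900%) lower. A further 38 loci were at least 2-fold higher and 13 at least 2-fold lower with overlapping bounds. Each group's count of calls given for a gene list stands beside this 11.2%, and no list was tested. More host cells of a type and more RNA per cell, or fewer and less, cannot be told apart in whole tumour tissue.

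Most loci lay on the higher side, 219 of the 303, with 84 on the lower side. The median difference, docetaxel minus untreated, was 0.44 over the 303 loci, with quartiles of -0.05 and 0.95, and 0.34 over all loci compared, where 0 is no difference. The docetaxel library was scaled by the median ratio over all loci at 5 FPKM or more in both libraries. The rule then called 23 higher and 3 lower. Scaling by the segment loci at that level gave 21 higher and 3 lower, and quantile normalization gave 23 higher and 5 lower. Under these scalings the median of the 303 loci was 0.20, 0.12 and 0.09. Of the 24 loci called with a value above 0 in both libraries, 12 passed under every scaling: Retn, Pcx, Ghr, both Hba-a1 entries, Akr1c14, Cd209f, Decr1, Mmp13, Pex13, Xbp1 and Grb10. The other 12 failed at least 1 scaling: Mtmr3, Pno1, Efemp1, Pfkp, Sepp1, Penk, Sdcbp, Plekhf2, Trp53inp1, Gas6, Mmp12 and Birc2. Trp53inp1 failed the median scalings, with differences of 2.02 and 1.95, because its scaled docetaxel value fell below 5 FPKM.

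**Figure D1:**
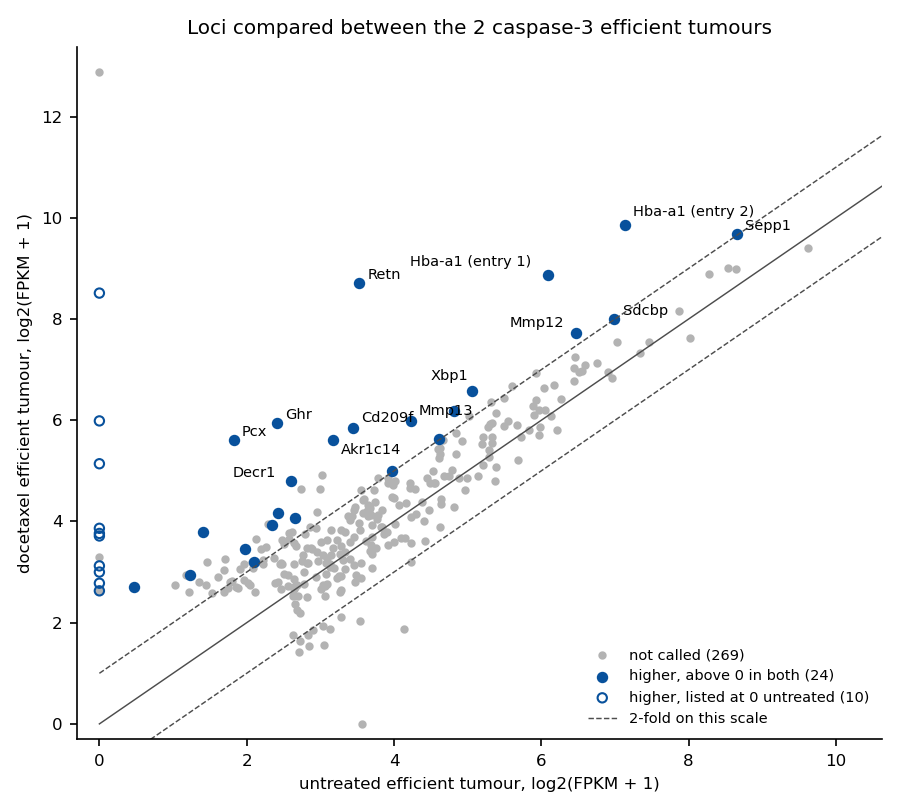
Level of each of the 303 compared loci in the untreated (x axis) and docetaxel (y axis) efficient tumour, both as log2(FPKM + 1). Filled blue points are the 24 loci called higher with a value in both libraries, open circles the 10 called against a listed 0, and grey points the 269 others; all called points lie above the upper dashed 2-fold line. The grey point at the upper left is Mir684-2, a locus under 500 bp whose FPKM exceeded its own upper bound.

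Resistin, encoded by Retn (chr8:3655770-3659818 in build mm9, the span of the whole gene as the tables give it), is a hormone that white fat cells of the mouse secrete. Retn was at 10.5 FPKM (bounds 0 to 33.6) in the untreated tumour and 417 (333 to 502) in the docetaxel tumour, and it was listed at 0 in both inhibited tumours. The docetaxel efficient tumour thus stood apart from all 3 other libraries, by 5.19 on the log2 scale from its untreated counterpart. The bounds allow a ratio no smaller than 9.91, while the untreated value corresponds to about 1 fragment. Retn was the single adipocyte marker among the 662 loci. The summed level of all 18 adipocyte markers in the table went from 13.3 to 429 FPKM, of which Retn was 10.5 and 417. The sum was 11.6 and 12.4 in the inhibited tumours, in each from 1 marker other than Retn. Leaving Retn out, the markers of the docetaxel efficient tumour summed to about the level of the inhibited tumours. Of these markers 14 were listed at 0 in all 4 libraries, including Adipoq, Fabp4, Plin1 and Pparg. All 14 lie outside the segments, where a 0 gives no level. Whether fat tissue in the sample had a part in the Retn difference was not tested.

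Genes of fat and fuel metabolism lay mostly on the higher side: of 11 compared, 10 had a positive difference and 3 passed the rule, and the group's median was 0.84 against 0.44 for all 303 loci. Pcx (chr19:4510472-4621752), pyruvate carboxylase, which makes oxaloacetate for the citric acid cycle, glucose synthesis and fat synthesis, was at 2.54 FPKM (0 to 5.59) untreated and 48.0 (39.1 to 56.8) with docetaxel. It was at 1.71 and 2.28 in the untreated and docetaxel inhibited tumours, so the docetaxel efficient library alone was high. The difference was 3.79, with a smallest ratio of 7.01. Lrfn4 lies inside the Pcx span and was at 1.47 and 3.34 FPKM, and no source used here says whether counting used strand. Decr1 (chr4:15844387-15872654), the mitochondrial 2,4-dienoyl-CoA reductase needed to oxidise polyunsaturated fatty acids, was at 5.06 (2.02 to 8.75) and 26.9 (19.1 to 34.7), a difference of 2.20. It was at 6.49 and 5.42 in the inhibited tumours, within the range of the untreated efficient bounds.

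Pfkp (chr13:6579120-6647970), the platelet form of the glycolytic enzyme phosphofructokinase, was at 14.7 (8.95 to 20.0045) and 31.0 (23.9 to 38.2), a difference of 1.03. Its inhibited values of 11.2 and 12.6 lay below both. Other members fell short of the rule. Mdh1, cytosolic malate dehydrogenase, missed the 2-fold limit narrowly at 60.1 (41.7 to 77.3) and 121 (91.2 to 137). Cpt1a, the carnitine palmitoyltransferase that admits long-chain fatty acids to mitochondria, was at 14.1 (9.26 to 18.5) and 26.1 (19.7 to 32.2). Both had bounds apart, with 56.1 and 76.6 FPKM for Mdh1 and 6.002 and 8.02 for Cpt1a in the inhibited tumours. Acyp2, a muscle-type acylphosphatase, was at 12.8 and 28.2 with overlapping bounds and listed at 0 in the inhibited pair.

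A pair of genes for peroxisomes, the organelles that shorten very long fatty acids, were also higher. Pex13 (chr11:23546479-23565935), part of the import machinery in the peroxisome membrane, was at 4.07 (1.45 to 6.76) and 14.2 (9.74 to 18.8), a difference of 1.59, and at 4.87 and 6.10 in the inhibited tumours. Pex11c (chr8:3458817-3467648), of the family that divides peroxisomes, was listed at 0 untreated and at 13.6 (5.28 to 21.1) with docetaxel, and at 0 in both inhibited tumours. It was the single member of the 10-gene peroxisome list inside the 662 loci; Pex13 was in no list.

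Receptors and their adaptors gave 2 higher loci of 5 compared, with a group median of 1.03. Ghr (chr15:3267760-3533230), the growth hormone receptor, abundant in liver and fat, was at 4.30 (0 to 14.9) and 60.3 (41.4 to 79.2), a difference of 3.53. The untreated value corresponds to about 1 fragment and the docetaxel value to about 41. The inhibited tumours had 11.1 and 9.78, between the efficient ones and nearer the untreated. Grb10 (chr11:11830502-11937423), an adaptor that dampens signalling by the insulin and IGF-1 receptors, was at 5.30 (2.04 to 8.56) and 15.7 (11.1 to 20.3), a difference of 1.40, with 6.86 and 10.5 in the inhibited tumours. Kremen1 and Lrp5, receptors of the Wnt pathway, lay on the other side without passing the rule, Kremen1 at 10.2 and 6.71 and Lrp5 at 7.21 and 5.74.

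Aldo-keto reductases and detoxification genes had a positive difference in 10 of 11 loci compared, where 219 of all 303 were positive, and 2 passed the rule, a share near the 11.2% of all loci. Their median was 1.02. Akr1c14 (chr13:4058837-4089668), an aldo-keto reductase that acts on steroids, was at 7.99 (3.26 to 12.2) and 48.1 (35.3 to 60.8), a difference of 2.45. It was listed at 0 and at 3.997 in the inhibited tumours, so its level was highest in the docetaxel efficient tumour by a wide margin. Aldo-keto reductase copies on chromosome 13 are alike in sequence, and no source used here says how the authors' counting split reads between them. Sepp1 (chr15:3220767-3230508), the plasma selenoprotein P that carries selenium, was at 401 (356 to 446) and 816 (756 to 876), a difference of 1.02 resting on about 322 and 736 fragments. The inhibited tumours had 255 and 363, both below the untreated efficient tumour. Under quantile normalization the Sepp1 difference was -0.13, the other way. Sepp1 and Ghr were the only loci compared on chromosome 15.

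Gstp1, a glutathione transferase, was at 27.6 and 52.6, and Ccs, the copper chaperone for superoxide dismutase, at 6.99 and 23.9, both with overlapping bounds. Aldh3b2, an aldehyde dehydrogenase in no list here, was listed at 0 untreated and at 7.003 (2.75 to 11.0) with docetaxel. It was at 0 and 0.509 in the inhibited tumours.

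All 3 alpha globin entries compared were higher with docetaxel. Alpha globin is the haemoglobin subunit made by maturing red cells, and its transcript is carried in blood by reticulocytes. Hba-a1 at chr11:32183672-32184486 was at 67.1 (33.5 to 106) and 469 (376 to 562) FPKM, and at 163 and 92.2 in the inhibited tumours. The second Hba-a1 entry, chr11:32196489-32197303, was at 140 (83.8 to 196) and 933 (781 to 1090.2), with 772 and 335 in the inhibited tumours. The efficient differences were 2.79 and 2.73, while the inhibited pair went the other way at -0.82 and -1.20. Hba-a2 overlaps the second entry almost base for base and was at 364 in the docetaxel efficient library and listed at 0 in the 3 others, and the deposited values do not show how reads were split between the entries. The summed level of the 12 erythroid loci was 208 untreated and 1767 with docetaxel, and 935 and 427 in the inhibited tumours. Nearly all of it was alpha globin. Of the 12, 8 were listed at 0 in every library, including a further Hba-a2 entry. Alas2, Hbb-b1 and Hbb-b2, also among the 8, lie outside the segments, where a 0 gives no level. The part of blood content in the other differences was not tested.

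Of 6 macrophage and dendritic cell loci compared, 6 had a positive difference and 3 passed the rule. Their median was 2.15, the highest of any group with more than 3 loci. The 6 were Mmp12 and the neighbouring copies Cd209a, Cd209b, Cd209d, Cd209f and Cd209g. Cd209a, Cd209b and Cd209d were under 5 FPKM untreated and entered only through their docetaxel values, which fixed a positive sign. Cd209f (chr8:4102793-4105764), one of the mouse relatives of the dendritic cell lectin DC-SIGN, was at 9.89 (1.80 to 17.96) and 56.2 (30.8 to 73.8), a difference of 2.39. It was at 12.3 and 4.94 in the inhibited tumours, lower with docetaxel there. Cd209d was listed at 0 untreated and at 12.1 (3.45 to 20.7) with docetaxel. Cd209g, at 5.64 (0 to 11.0) and 24.0 (11.0 to 37.0), had bounds that overlapped narrowly and was not called. The Cd209 genes are close copies, so reads may be divided between them.

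Mmp12 (chr9:7347374-7360461), the elastase of macrophages, was at 87.8 (71.8 to 103) and 210 (181 to 230), a difference of 1.25 resting on about 124 and 299 fragments. Its inhibited values were 55.2 and 94.8. It failed the rule after scaling to the segment median and after quantile normalization. The summed level of the 18 macrophage and dendritic cell loci in the table was 105 untreated and 319 with docetaxel. It was 75.3 and 109 in the inhibited tumours. Most of this sum was Mmp12 and Cd209f, described above. Of the 18, 9 were listed at 0 in all 4 libraries. Lyz2, Cd68, Csf1r and Itgam, among the 9, lie outside the segments, where a 0 gives no level. Of 11 genes of general blood cell signalling, 0 passed the rule. Their median was 0.14 as deposited and -0.10, -0.19 and -0.23 under the 3 scalings. The 303 loci had 0.44 as deposited and 0.20, 0.12 and 0.09 under the scalings. Plek, pleckstrin of platelets and leukocytes, was at 38.7 and 59.6, and Unc93b1, which delivers endosomal Toll-like receptors, was at 259 (226 to 292) and 197 (172 to 222), the 1 locus whose bounds were apart downward. Unc93b1 was called lower under quantile normalization, with a difference of -1.17.

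**Figure D2:**
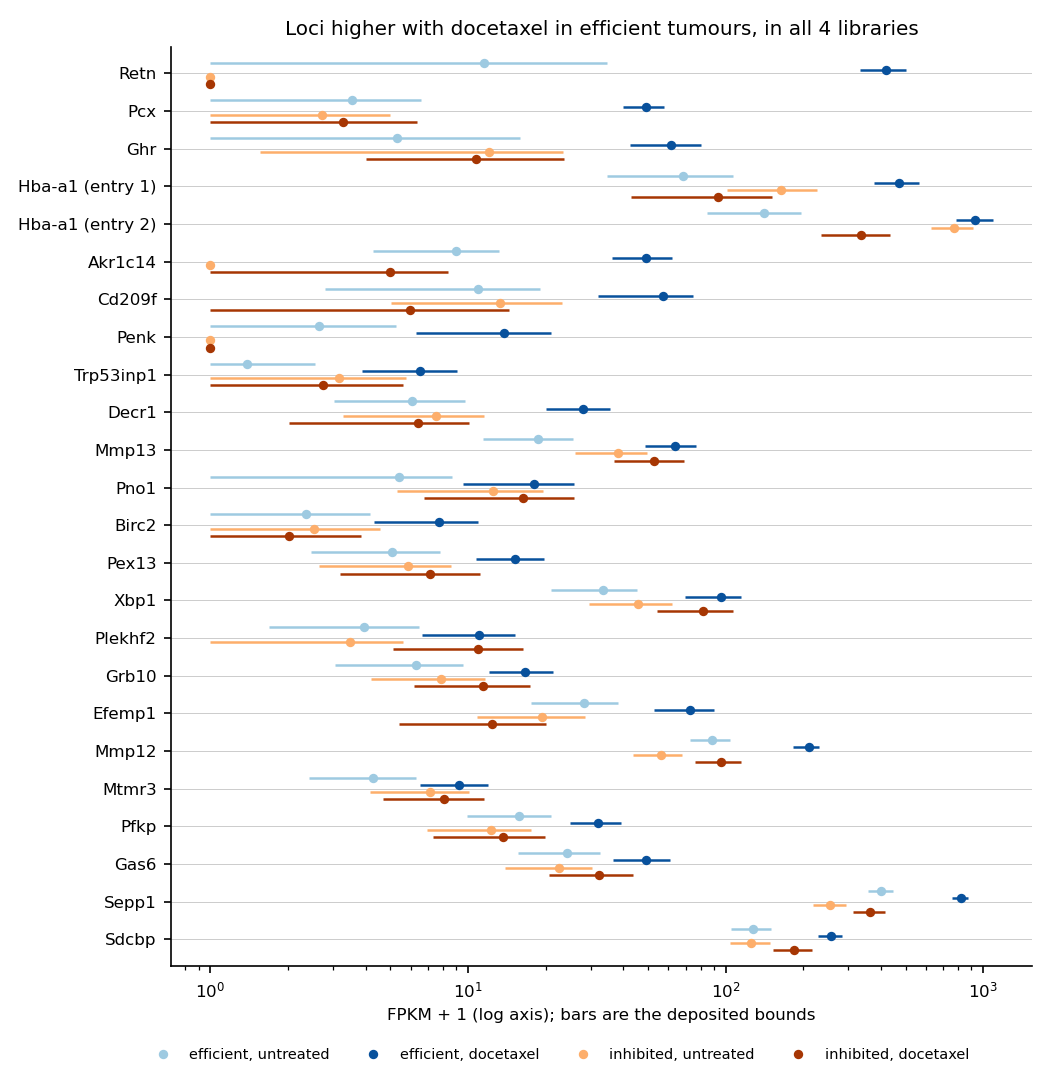
FPKM + 1 on a log axis of the 24 loci called higher with a value above 0 in both efficient libraries, in all 4 libraries, with bars for the deposited bounds. The dark blue points of the docetaxel efficient tumour lie to the right of the light blue untreated ones at every locus, and for most loci to the right of both inhibited tumours (orange and brown) as well.

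Of 4 matrix proteases compared, 4 had a positive difference and 2 passed the rule, Mmp13 and Mmp12 (which the myeloid list also holds), with a median of 1.21. Mmp27, with a difference of 1.17, was under 5 FPKM untreated and entered only through its docetaxel value. Mmp10 and Mmp8 were under 5 FPKM in both libraries and were not compared. Their differences were -0.5 and -0.17. Mmp13 (chr9:7272514-7283333), a collagenase of fibroblasts and cartilage, was at 17.7 (10.4 to 24.6) and 62.5 (47.8 to 75.6), a difference of 1.76. The inhibited tumours had 37.1 and 52.0, both above the untreated efficient tumour. Mmp3, stromelysin 1, was at 44.3 (28.8 to 59.8) and 86.3 (62.0 to 103), with bounds apart and a difference of 0.95, and at 18.2 and 97.3 in the inhibited tumours. Mmp3 was thus near one level in the docetaxel tumours of both kinds.

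Structural matrix genes had a median of 0.39, and -0.07 under quantile normalization, against 0.44 and 0.09 for the 303 loci. Of 8 such genes, 7 had a positive difference and 1 passed the rule. That locus was Efemp1 (chr11:28753205-28826743), the extracellular matrix protein fibulin 3, at 27.2 (16.6 to 37.2) and 71.6 (51.9 to 89.1), a difference of 1.37. It was at 18.3 and 11.4 in the inhibited tumours, lower with docetaxel there. Its paralog Efemp2, fibulin 4, was level at 55.9 and 55.1. Col1a2, the type I collagen chain that fibroblasts make, was at 369 (335 to 401) and 515 (470 to 532), bounds apart but under 2-fold, and the vessel basement membrane chain Col4a1 at 26.7 and 31.5. The summed fibroblast and pericyte markers were at 421 and 579 FPKM in the efficient tumours, most of it Col1a2. They were at 410 and 610 in the inhibited ones.

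Secreted factors and their binding proteins gave 3 higher loci of 9, with a median of 0.41. Gas6 (chr8:13465374-13494535), the ligand of the TAM receptors by which macrophages take up dead cells, was at 23.3 (14.6 to 31.5) and 48.2 (35.6 to 59.7), a difference of 1.02, and at 21.5 and 31.2 in the inhibited tumours. Penk, the precursor of the enkephalin opioid peptides, was at 1.65 (0 to 4.23) and 12.8 (5.27 to 20.0147) and listed at 0 in the inhibited tumours. Stc2, the secreted glycoprotein stanniocalcin 2, was listed at 0 untreated and at 7.71 (3.32 to 12.4) with docetaxel. Igfbp3, which binds insulin-like growth factors, was level in the efficient tumours at 69.4 (52.2 to 85.7) and 66.5 (49.99 to 82.9), although it was at 63.0 and 168 in the inhibited ones and called higher there. Tnfsf13b, the B cell survival factor BAFF, was at 10.7 (4.69 to 17.6) and 3.08 (0 to 6.13), a difference of -1.51 with overlapping bounds.

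Among stress and cell death genes, Xbp1, Trp53inp1 and Birc2 were higher. Xbp1 (chr11:5420970-5425875), the transcription factor that is activated by splicing in the unfolded protein response, was at 32.4 (19.9 to 44.3) and 94.96 (68.6 to 114), a difference of 1.52. It was at 44.8 and 80.4 in the inhibited tumours, also higher with docetaxel but with overlapping bounds. The apoptosis and inflammatory caspase group had a positive difference in 7 of 8 loci, of which 2 passed the rule, and a median of 0.94. Trp53inp1 (chr4:11083588-11101524), a p53 target with roles in autophagy and cell death, was at 0.383 (0 to 1.54) and 5.50 (2.89 to 8.10), with 2.15 and 1.73 in the inhibited tumours. Birc2 (chr9:7818226-7835255), the ubiquitin ligase cIAP1, was at 1.36 (0 to 3.17) and 6.69 (3.32 to 9.95), with 1.52 and 1.02 in the inhibited tumours. Both were low in 3 of the 4 libraries and failed at least 1 scaling.

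The inflammatory caspases lie on the same stretch of chromosome 9 as Birc2, and Casp1, Casp4 and Casp12 did not pass the rule. Casp1, which activates interleukin 1 beta, was at 45.6 and 62.4. Casp4, at 24.3 (12.5 to 34.8) and 47.8 (29.1 to 65.4), and Casp12, at 4.97 and 12.6, were higher with overlapping bounds. In the NF-kB list, 1 of 7 passed (Birc2). The median was 0.01 as deposited, against 0.44 for the 303 loci. Under the scalings it was -0.23, -0.32 and -0.31, against 0.20, 0.12 and 0.09. Rela, the transactivating subunit, was level at 19.9 and 19.96.

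The microtubule, centrosome and mitosis list had a median below 0, but only some of its genes belong to the system on which docetaxel acts. Of its microtubule and centrosome genes named here, Gas2l1 and Tubgcp3 were higher and Sfi1 and Klc2 lower. Of 10 microtubule, centrosome and mitosis loci compared, 0 passed the rule, and 7 had a negative and 3 a positive difference. Their median was -0.35 as deposited, against 0.44 for all 303 loci. Under the scalings it was -0.56, -0.64 and -0.64, against 0.20, 0.12 and 0.09 for the 303 loci. In the inhibited pair the median of this list was 0.52. Banf1, which gathers chromatin when the nuclear envelope reforms, was at 123 and 113 FPKM, and Cdk2ap2, a binding partner of cyclin-dependent kinase 2, at 50.6 and 36.0. Vrk2, a kinase, was at 14.2 and 10.6, and Tfdp1, the partner of E2F factors, at 12.0 and 9.23. Gas2l1, which links microtubules and actin, lay on the other side at 6.79 (0.754 to 12.9) and 9.55 (3.82 to 15.3), a difference of 0.44, and the centrosome gene Sfi1 was at 7.07 and 5.34. The farthest members, picked after their values were seen, were Fbxo5, the inhibitor of the anaphase-promoting complex also called Emi1, at 6.21 (1.10 to 11.0) and 1.91 (0 to 4.12), Klc2, a kinesin light chain, at 7.78 (3.51 to 12.7) and 2.69 (0 to 5.91), and Tubgcp3, of the gamma-tubulin ring, at 1.73 (0 to 3.27) and 5.69 (2.85 to 8.15). All had overlapping bounds and at most about 18 fragments.

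The actin list had a median of 0.45 with 0 of 11 called as deposited. Rtn4, a membrane-shaping reticulon, at 64.4 and 98.2, and Spnb2, a non-erythroid spectrin, at 23.5 and 37.4, had bounds apart below 2-fold. Smtn, smoothelin of smooth muscle, was at 17.8 (11.4 to 24.8) and 8.19 (4.33 to 12.5), a difference of -1.03 with overlapping bounds as deposited. Smtn was called lower under the 3 scalings, together with Map3k11, a kinase upstream of JNK, at 20.5 and 11.3, and the uncharacterised 2410022L05Rik, at 16.6 and 2.69, both looked up because they were called there.

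**Figure D3:**
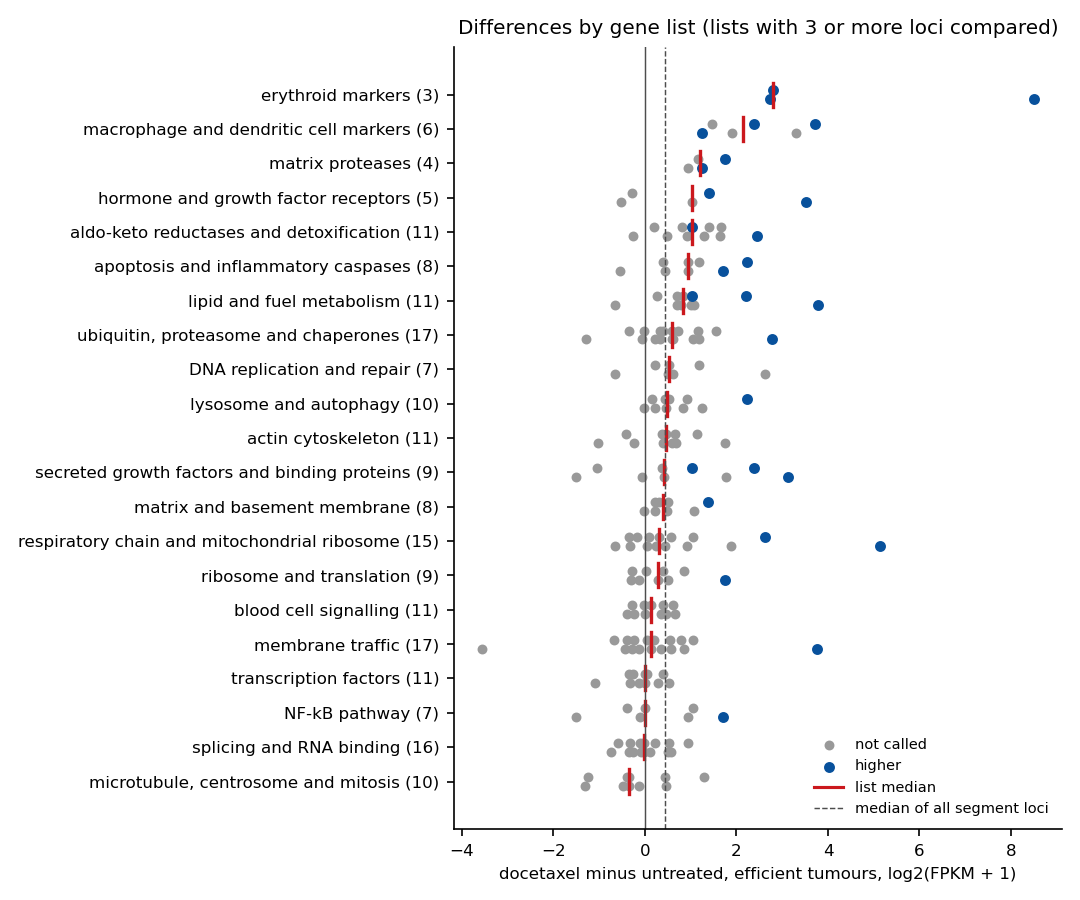
Docetaxel minus untreated difference in log2(FPKM + 1) of each compared locus in the efficient tumours, by gene list for lists with at least 3 loci, ordered by median. Blue points are called higher and grey points are not called; red bars are list medians, and the dashed line is the median of all 303 loci, 0.44. Erythroid and myeloid lists lie farthest to the right. The microtubule, centrosome and mitosis list, which also holds chromatin and cell cycle genes, is the only one whose bar lies clearly left of 0.

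As deposited, the machinery of RNA and protein production had medians closer to 0 than the 0.44 of all 303 loci. Splicing and RNA-binding loci had a median of -0.03, with a negative difference in 10 of 16 and 0 called. Under the scalings their median was -0.26, -0.34 and -0.41, farther from 0 than the 0.20, 0.12 and 0.09 of the 303 loci. Ribosome and translation genes had a median of 0.28 as deposited, and -0.06 and -0.20 under segment and quantile scaling, with 1 of 9 called. That one was Pno1, which helps assemble the small ribosomal subunit, at 4.39 (0 to 7.65) and 17.0 (8.56 to 24.7), and at 11.5 and 15.4 in the inhibited tumours. Here the untreated efficient tumour was the low one of the 4. Transcription factors had a median of 0.01, and -0.23, -0.32 and -0.33 under the scalings, with 0 of 11 called.

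Organelle genes were mixed. Of 15 respiratory chain and mitochondrial ribosome loci 2 were called, both against a listed 0: Acn9, an assembly factor of succinate dehydrogenase, at 34.3 (8.11 to 51.4), and Mtfp1, which promotes mitochondrial division, at 5.19 (1.07 to 8.52). The list's median was 0.31. Ndufs8, a complex I subunit, was at 31.4 and 66.7, with 5.88 and 74.6 in the inhibited tumours. Lysosomal loci had a positive difference in 9 of 10 and a median of 0.49, with Trp53inp1 as the called one. The lysosomal membrane protein Lamp1 was at 129 and 186, and the proton pump subunit Atp6v1h at 23.6 and 43.1.

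Membrane traffic loci had a median of 0.14, and -0.10, -0.20 and -0.24 under the scalings. The 303 loci had 0.44, and 0.20, 0.12 and 0.09 under the scalings. Of the 17 traffic loci 1 was called. That was Rab20, a small GTPase of maturing phagosomes, listed at 0 untreated and at 12.6 (2.06 to 22.7) with docetaxel. In the ubiquitin and chaperone list 1 of 17 was called, the HSP90 activator relative Ahsa2, at 0 (upper bound 1.17) and 5.87 (2.22 to 9.75), with 6.65 and 14.2 in the inhibited tumours. For Ahsa2, as for Pno1, the docetaxel efficient value was not above the inhibited tumours' bounds.

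Of the called loci 6 belonged to no list. Sdcbp (chr4:6292827-6323269), syntenin 1, which binds syndecans and takes part in exosome formation, was among the best counted, at 126 (104 to 148) and 255 (228 to 282) from about 131 and 354 fragments. It was at 125 and 183 in the inhibited tumours. Mtmr3, a phosphoinositide phosphatase, was at 3.28 (1.40 to 5.27) and 8.23 (5.51 to 11.0). Plekhf2, an endosomal protein, was at 2.93 (0.682 to 5.46) and 10.03 (5.60 to 14.3), and its inhibited values of 2.47 and 9.90 repeated nearly the same step without being called. The uncharacterised 2400009B08Rik (chr8:3671185-3672321), a short way along chromosome 8 from Retn, was listed at 0 untreated and at 62.5 (8.40 to 67.2) with docetaxel, and at 0 in both inhibited tumours, as Retn was. Pex13 and Aldh3b2 were the others.

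The 2-fold limit separated near neighbours. Just inside it were Sdcbp, Gas6 and Sepp1, with differences of 1.01, 1.02 and 1.02. Just outside, with bounds apart, were Mdh1 (above), Pcmtd1, a methyltransferase-like gene, at 5.94 and 12.5, and Myo1g, a myosin of blood cells, at 14.1 and 28.2. Bounds were apart upward but below 2-fold at 12 loci, among them the nuclear noncoding RNA Malat1, at 92.8 (81.6 to 104) and 125 (112 to 137).

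The number of fragments behind a call varied widely. Over the 24 loci called with a value in both libraries, the median was about 11 fragments untreated and 57.9 with docetaxel, and 6 of them had under 5 fragments untreated. The 10 called against a listed 0 had from 6 to 43.5 fragments in the docetaxel library. Among the 35 loci with at least 50 fragments in both libraries, 3 were higher (Mmp12, Sepp1 and Sdcbp) and 0 lower, the differences ran from -0.41 to 1.25 with a median of 0.39, and 24 lay within 0.5 of 0. Ppp1ca, a catalytic subunit of protein phosphatase 1, was level at 161 (129 to 194) and 159 (130 to 188), and Rab1, a GTPase of transport from the endoplasmic reticulum, at 119 and 122.

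In the inhibited tumours, 6 of 264 compared loci (2.27%) were higher with docetaxel and 3 (1.14%) lower, in the 2 libraries of least depth. Of the 34 loci, 0 were called higher in the inhibited pair and 1, the second Hba-a1 entry, was called lower, and with so low a share called there the 0 is near the background. By sign, 19 were higher, 9 lower and 6 (Retn, Penk, Pex11c, Mtfp1, Hba-a2 and 2400009B08Rik) were listed at 0 in both inhibited libraries. The median difference of the 34 was 0.23, including the 6 listed at 0 and others under 5 FPKM there. The median of 0.35 over the 264 loci leaves such loci out, so the medians are not of like sets. Whether the docetaxel difference itself differed between the efficient and inhibited tumours could not be tested with 1 library a group.

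In the docetaxel efficient tumour 33 of the 34 loci had their highest value of all 4 libraries. At 17 of them its lower bound was above the upper bounds of all 3 others: Retn, Pcx, Ghr, Decr1, Pfkp, Pex11c, Akr1c14, Sepp1, Cd209f, Mmp12, Efemp1, Sdcbp, Penk, Mtfp1, Hba-a2, 1 Hba-a1 entry and 2400009B08Rik. Of the 17, Pex11c, Mtfp1, Hba-a2 and 2400009B08Rik were listed at 0 in the 3 others. For them the separation says little more than that they were detected in 1 library. The counts of 33 and 17 share the docetaxel efficient library with the rule that chose the loci, and are a description.

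**Figure D4:**
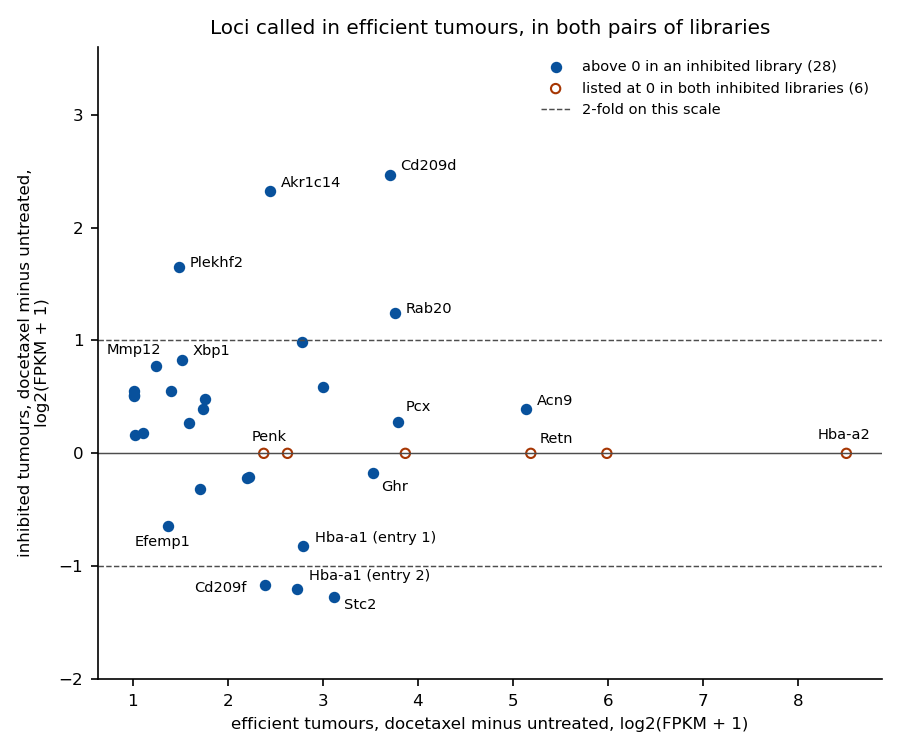
Docetaxel minus untreated difference in log2(FPKM + 1) of the 34 called loci in the efficient (x axis) and inhibited (y axis) tumours, with dashed lines at 2-fold in the inhibited pair. Filled points are the 28 loci above 0 in an inhibited library and open circles the 6 listed at 0 in both; the filled points spread on both sides of 0, with alpha globin, Cd209f and Stc2 among the lowest.

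Calls came from 8 of the 11 chromosomes: 12 of 109 compared loci on chromosome 11, 7 of 41 on chromosome 8, 5 of 27 on chromosome 4, 3 of 14 on chromosome 9, 2 of 14 on chromosome 13, 2 of 72 on chromosome 19, 2 of 2 on chromosome 15 and 1 of 12 on chromosome 6. Chromosomes 1, 10 and 12 had 5, 4 and 3 compared loci and 0 calls.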

How the data were processed

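RNA of 4 xenograft tumours was sequenced, 1 library per group, after ribosomal RNA depletion or mRNA purification, per the labels' protocols. Per the submitters' processing notes the authors used TopHat and Cufflinks with the mouse build mm9, and no source used here gives their versions. Each deposited table holds, per the file headers, an FPKM, its confidence bounds and a status per locus. No recorded step separated human from mouse reads.

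The 662 loci are those with name and position matched between tables that end within the first 3.6 to 34.6 Mb of 11 chromosomes; elsewhere, genes used by every cell were often listed at 0, so a marker at 0 there gives no level. Start positions were raised by 1. Groups came from the sample titles. The members and the 32 gene lists were chosen with earlier results of these data known.

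Differences are of log2(FPKM + 1), which understates those of low loci. Calls needed a 2-fold difference on this scale, separate bounds, the status OK in each library and 5 FPKM in at least 1. A locus under 5 FPKM in 1 library was compared only through the other, which fixes the sign of its difference. No fold is given against a locus listed at 0, and separate bounds there rest mainly on the other library. No test across conditions was possible with 1 library a group. The bounds cover counting and assignment error within a library, not differences between animals. Read counts were not used here; fragments were estimated from the bounds, taken as 2 SD of a Poisson count on each side, and are rough. The smallest ratio is the docetaxel lower bound over the untreated upper bound. Where a value exceeded its own upper bound (4 loci untreated, 6 with docetaxel) no fragments were estimated.

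Named loci were all called ones, up to 6 per list and the 15 of highest mean FPKM, and the 3 nearest the limit on each side; those named by no such rule are marked or given as background. Alternatives were other pseudocounts, FPKM minimums, scalings, fold limits and interval rules. Python 3.11.15, pandas 2.3.3, numpy 2.4.6 and matplotlib 3.10.9 were used.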

Additional observations from a re-analysis of the deposited data

Results flagged for a closer look

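The second Hba-a1 entry (chr11:32196489-32197303) moved in opposite directions with docetaxel in the efficient and inhibited tumours. It was at 140 and 933 FPKM in the untreated and docetaxel efficient tumours and at 772 and 335 in the inhibited ones, with bounds apart in both pairs. The difference was 2.73 in the efficient pair and -1.20 in the inhibited pair, so the inhibited minus the efficient difference was -3.93. This contrast between the pairs was not tested, since each group was 1 library.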

How the results depend on the processing

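Over all loci, 54 were called higher and 6 lower as deposited, and over the 662 loci 34 and 0. All loci called lower numbered 2 with a pseudocount of 5, 11 with a minimum of 1 FPKM or none or of 5 estimated fragments, 1 with a minimum of 20 FPKM, 3 at 3-fold, 46 without the interval rule, and 14, 15 and 17 with scaling to the median of all loci, of segment loci and by quantiles. All loci called higher numbered 24 with a minimum of 20 FPKM, 33 with segment scaling, 141 without the interval rule and 34 with values above 0 in both libraries. Segment loci called higher numbered 19 with a minimum of 20 FPKM, 21 with segment scaling and 72 without the interval rule. Segment loci called lower numbered 3, 3 and 5 under the 3 scalings and 13 without the interval rule. The segment median of 0.44 was 0.18, 0.07 and 0.03 over the loci reaching 5 FPKM after each scaling. That of all loci, 0.34, was 0.05, -0.07 and -0.06. Sepp1 changed direction, to -0.13, under quantile normalization. Over the 13 alternatives, Akr1c14, Ghr, Pcx, Decr1, Retn, Cd209f, Mmp13 and 1 Hba-a1 entry were called higher under each. Stricter rules call fewer loci by construction, and for the scalings the cause was not tested.

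No paired analysis was possible because each group was 1 library, and for the same reason no fit without 1 library was run. Estimated fragments were at a median of 8.57 untreated and 13.6 with docetaxel, and 6 of the 24 calls with values in both libraries rest on under 5 untreated.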

Other observations

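Below the 5 FPKM minimum, 5 loci were at least 2-fold higher with bounds apart, all listed at 0 in the untreated efficient tumour, and they were looked up after their values were seen. Esr1, the oestrogen receptor alpha, was at 1.83 FPKM (0.344 to 3.10) with docetaxel and at 0 in both inhibited tumours. Car8, a carbonic anhydrase relative without enzyme activity, was at 1.36 (0.260 to 2.34) and likewise at 0 in the inhibited tumours. Acy3, an aminoacylase, was at 4.75 (0.990 to 7.92), with 1.72 and 2.30 in the inhibited tumours. Dusp18, a dual-specificity phosphatase, was at 1.36 (0.321 to 2.57), and Cep68, a protein that links centrosomes, at 2.28 (0.618 to 3.71). Cep68 was also above 0 in both inhibited tumours, at 0.971 and 2.59. Each docetaxel value rests on about 6 to 9 fragments.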
